A study of Mus musculus with 8 samples.

Results

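Ugt2a3 encodes a UDP-glucuronosyltransferase, and its transcript was read here by the probe MOUSELNCRNA_43480, 1 of the 90752 transcript probes of a one-colour Agilent mouse array. Whether other probes on the array also read it is not known. The gene was chosen by its measured fold change between the groups, as one of the mRNAs with the largest falls after duodenal-jejunal bypass in the study's own list, so that difference is described below with no test. The arrays held ileal RNA of 8 male C57BL/6 mice, 1 array per mouse, 4 after duodenal-jejunal bypass (DJB) and 4 after a sham operation. All 8 mice were put on a high-fat diet at 6 weeks of age, were operated on after 12 weeks of it as a model of diet-induced type 2 diabetes, and were killed 2 weeks after surgery. DJB reroutes food past the duodenum and upper jejunum through a Roux limb, while bile and pancreatic juice run down a biliopancreatic limb, and the sham mice had anaesthesia and a laparotomy without transection. The labels name ileum as the tissue, whereas their extraction text speaks of duodenum. Tissue markers could not be checked, because the array files name no genes.

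UDP-glucuronosyltransferases sit in the membrane of the endoplasmic reticulum and join glucuronic acid from UDP-glucuronic acid to small fat-soluble molecules, which makes them more soluble in water and easier to export. Enterocytes and hepatocytes are rich in these enzymes, and their substrates include bilirubin, steroids, bile acids, fatty acids and many drugs. The Ugt2 enzymes are encoded one after another in a gene cluster. Measures made on a piece of ileum do not separate less RNA per cell from fewer cells that carry the transcript.

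The probe is printed because every value below rests on this one stretch of sequence, read at 2 spots per array. It has 60 bases, 35.0% of them G or C, and its longest run of T is 5 bases.

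Ugt2a3 probe MOUSELNCRNA_43480: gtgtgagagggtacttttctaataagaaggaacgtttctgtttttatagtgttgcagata

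The array files carry no gene symbols, and the probe was tied to Ugt2a3 by matching the group ratios computed from the authors' deposited log2 values to the study's list, where the match held to a relative error of 1.7e-10 and the next closest probe was off by 0.0108. The RefSeq transcript of the gene is NM_028094.3. In RefSeq for GRCm38.p6 Ugt2a3 lies on chromosome 5, between Ugt2b37 and Ugt2b38, with Ugt2b34, Ugt2b1, Ugt2b35, Ugt2b36 and Ugt2b5 beyond the first, and Ugt2a1, Ugt2a2 and the sulfotransferase genes Sult1b1 and Sult1d1 beyond the second. The files name no genome build, and where in the gene the probe lies (coding exon or untranslated region) was not determined. Among all other transcript probes on the array, the longest stretch shared with this one was 15 bases on the same strand, in 1 probe, and 14 bases on the opposite strand, in 1 probe. This compares probes only. The transcripts of the neighbouring Ugt genes were not at hand, so whether the probe also binds them was not tested.

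All 4 sham mice gave a clear Ugt2a3 signal, and no DJB mouse reached the lowest of them. On the scale of processed intensity, the scanner's background-subtracted brightness before any scaling between arrays, the mean of both spots was 55.0 in sham-1, 80.9 in sham-2, 143 in sham-3 and 444 in sham-4. For the other group this mean was 4.64 (DJB-1), 2.74 (DJB-2), 10.5 (DJB-3) and 22.2 (DJB-4). The brightest DJB mouse was thus below the dimmest sham mouse, and the mice of each group differed widely among themselves.

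After scaling, with each array's 75th percentile subtracted from the log2 intensity (relative log2 signal below), the level was -2.91 in sham-1, -2.41 in sham-2, -1.55 in sham-3 and 0.01 in sham-4. For DJB-1 it was -6.37, for DJB-2 -6.98, for DJB-3 -5.07 and for DJB-4 -4.01. The sham mean was -1.71 ± 1.28 and the DJB mean -5.61 ± 1.33 (SD, n = 4 each), a difference of -3.89 (SE 0.92) on the log2 scale or a 14.9-fold lower level after DJB. The gap between the lowest sham and the highest DJB mouse was 1.104, or 2.15-fold, so the distance between the groups at their closest was far below the distance between their means.

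**Figure D1:**
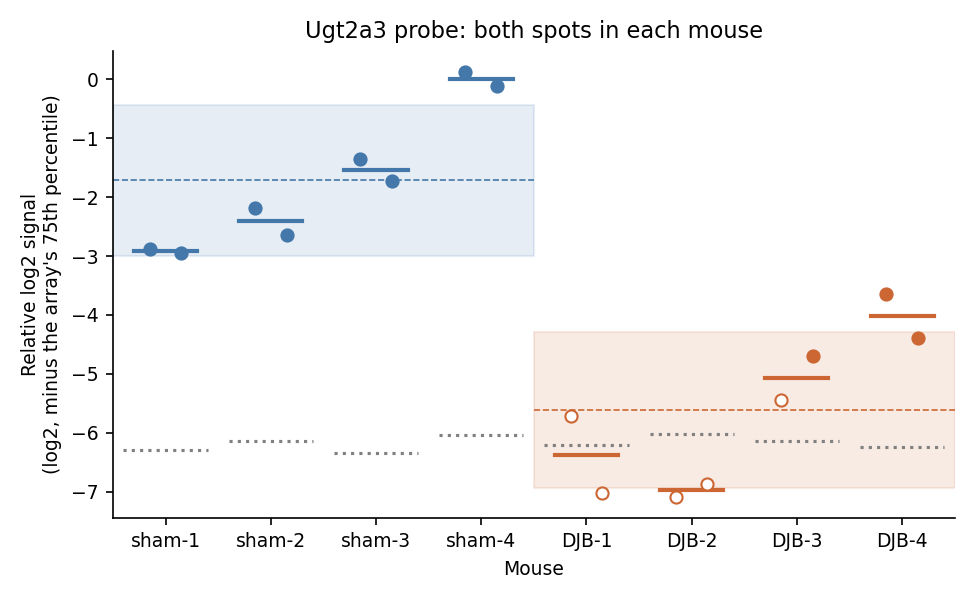
Relative log2 signal of the Ugt2a3 probe (y axis, log2 intensity minus the array's 75th percentile) at both spots in each of the 8 mice (x axis). Filled points are spots well above background and open points are not, and short bars are the mouse's mean. Dotted bars are the dimmest mean level of a probe with any spot well above background on that array. The bands are the group mean ± SD of 4 mice, at -1.71 ± 1.28 for sham and -5.61 ± 1.33 for DJB. The DJB mice lie below every sham mouse. The means of DJB-1 and DJB-2 lie below the dotted bar, whereas spot 1 of DJB-1, at -5.72, lies above it.

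Sham-4 stood highest, at a level 7.57-fold above sham-1. DJB-4 stood 4.60-fold above DJB-1 with DJB-1 taken at the dimmest level measured well above background on its array. Neither spot of DJB-1 was well above background. Its spot 1, at -5.72, still lay above that level, so this fold is not a bound. On the arrays themselves, 48.7%, 53.9%, 62.0% and 75.1% of all transcript probes were dimmer than Ugt2a3 in sham-1 to sham-4, so the transcript stood from the middle of the array's range upward. In DJB-1 to DJB-4 these shares were 18.9%, 10.9%, 27.2% and 37.3%. By linear means of scaled intensity the fold was 14.96 over all mice, 7.93 without sham-4 and 25.2 without DJB-4, and it lay between 12.1 and 18.4 when any other mouse was left out. These 2 mice therefore moved the linear fold by more than 1.5 times, whereas on the log2 scale the difference was -3.32 without sham-4 and -4.43 without DJB-4.

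Both spots gave nearly the same difference between the groups. The spots lie far apart on the slide, at row 746, column 97 and at row 924, column 71, and the DJB minus sham difference was -3.90 at spot 1 and -3.89 at spot 2. With the scanner's own error estimate, the processed intensities were 56.2 ± 6.13 and 53.7 ± 6.08 in sham-1, 93.5 ± 9.80 and 68.2 ± 7.57 in sham-2, 161 ± 16.3 and 124 ± 12.7 in sham-3, and 480 ± 48.1 and 408 ± 41.0 in sham-4. Both spots thus ranked the sham mice in the same order. In DJB-3 they were 7.86 ± 2.42 and 13.1 ± 2.80, and in DJB-4 27.7 ± 3.54 and 16.6 ± 2.96. DJB-1 had 6.60 ± 2.43 at spot 1, while its spot 2 (2.69) and both spots of DJB-2 (2.54 and 2.95) hold values that the scanner software put in place of a signal too close to background.

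By the scanner's own test all 8 sham spots were well above background, and so were spot 2 of DJB-3 and both spots of DJB-4, and neither spot was flagged as an outlier or saturated on any array. Ugt2a3 was thus measured on 4 of 4 sham and 2 of 4 DJB arrays, and DJB-1 and DJB-2 were not well above background at either spot. Probes well above background reached down to between -6.35 and -6.03 on the 8 arrays, and the negative control probes had medians between -7.44 and -7.10. With DJB-1 and DJB-2 raised to the lowest such level on their arrays (-6.22 and -6.03), a setting added after the values were seen, the difference was -3.62, or 12.3-fold. That level is not an upper limit for a signal not well above background, since spot 1 of DJB-1, at -5.72, lay above it.

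The spots of one array differed by 0.06, 0.45, 0.38 and 0.23 on the log2 scale in sham-1 to sham-4, against medians of 0.16, 0.14, 0.12 and 0.08 for other probes within 0.5 of its level on the same array. In DJB-1 to DJB-4 they differed by 1.29, 0.22, 0.74 and 0.74, against medians of 1.03, 0.17, 0.44 and 0.29. For comparison, the highest and lowest sham mouse lay 2.92 apart. Of the other spots within 5 rows and columns of each Ugt2a3 spot, 83 and 75 were well above background on every sham array. Their median DJB minus sham difference was 0.11 and 0.13, so the median of these surrounding spots was slightly above 0. Single differences ran from -2.14 to 1.49 around spot 1 and from -0.77 to 1.14 around spot 2.

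The sham arrays shared one slide and the DJB arrays another, so that slide and surgery cannot be told apart. Each slide holds 4 array positions, and at each position the DJB mouse was lower, which any matching of mice would give because the groups do not overlap. The difference was -2.66 at position 2 (sham-2 and DJB-3) and -2.47 at position 4 (sham-3 and DJB-4). At positions 1 and 3 the DJB mouse was not well above background, and with it at the dimmest level measured on its array the difference was -6.04 (sham-4 and DJB-2) and -3.31 (sham-1 and DJB-1). Array brightness differed between the slides, with a 75th percentile of processed intensity of 413 to 440 in the sham arrays and 342 to 349 in the DJB arrays, whereas the share of probes well above background was 71.5% to 74.6% and 72.4% to 74.0%. Without any scaling, the Ugt2a3 difference was -4.19.

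The probe was not chosen for its spread among mice that had the same operation, but spread and choice are not independent. The choice rested on a fold of group means, and by linear means that fold was 14.96 with sham-4 and 7.93 without it. The ranks of the spread are therefore given as a description. Of the 64408 tested probes, 92 had a larger SD than Ugt2a3 among the sham mice and 99 among the DJB mice, and 12 had a larger SD in both groups. Among probes within 0.5 of its group mean, the sham SD of 1.28 exceeded that of 99.8% of 8460 probes, whose median SD was 0.12. The DJB SD of 1.33 exceeded that of 99.2% of 621 probes, whose median was 0.37. The DJB mean lies near the lowest level measured well above background, where spots of one array also differed more. The DJB SD includes DJB-1 and DJB-2, which were not well above background. With every such value of every probe raised to the dimmest level measured on its array, a setting also added after the values were seen, the DJB SD was 1.01, larger than that of 99.3% of 1500 probes of like level, and 212 tested probes had a larger one, against 87 in the sham group and 26 in both. The sham mice thus differed more in Ugt2a3 than in nearly all other probes of its brightness, while for the DJB mice the size of the spread depends on values near background.

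**Figure D2:**
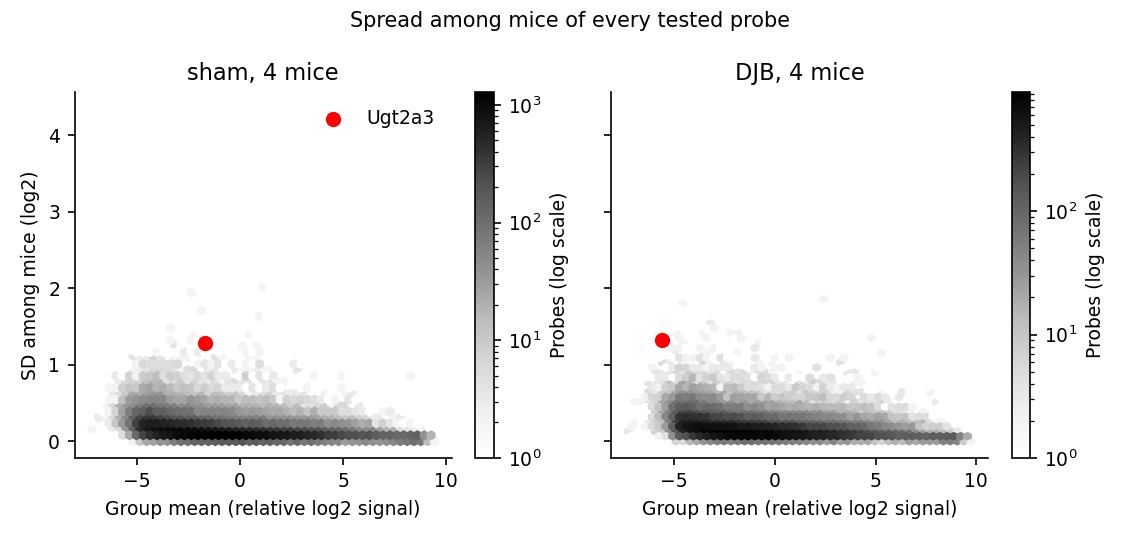
SD among the 4 mice of a group (y axis, log2) against the group mean (x axis, relative log2 signal) for all 64408 tested probes, sham at left and DJB at right. Shading counts probes on a log scale and the red point is Ugt2a3, which lies above the main cloud in both panels, at an SD of 1.28 and 1.33.

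All 20 mRNAs of the study's list were tied to probes, and 19 were tested. Me3, a malic enzyme, was not, since its 1 spot was flagged as an outlier on all 4 sham arrays. Among the 19, Ugt2a3 had the second largest SD in sham mice, after the fatty acid hydroxylase Cyp4a32 with 1.30, and the fifth largest in DJB mice. The other 8 tested mRNAs listed as lower after DJB had SDs of 0.10 to 0.95 in sham and 0.11 to 0.93 in DJB mice, and Me3, with the flagged spots kept, had 0.49 and 1.03.

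Across the array, 1482 of the 64408 tested probes (2.3%) were lower and 830 (1.29%) higher after DJB, with a fold of 2 or more and an adjusted p under 0.05 in limma. Ugt2a3 was among the lower ones, which is no test of it, since the same contrast chose it. Without scaling between arrays the counts were 3255 lower and 399 higher, and with scaling on the spike-in probes 4524 and 308, so the balance of the directions depends on the scaling. The Ugt2a3 difference was the 5th lowest of all tested probes as computed and the 7th lowest with values not well above background raised to the dimmest level measured on their arrays, while the median over all was 0.08 and the lowest 1% began at -1.38. Lower computed differences were seen for the lncRNA NONMMUT064720 (-4.76), the unnamed probe MOUSELNCRNA_54645 (-4.37), Nlrp9a (-4.29), which encodes an inflammasome protein of the NLR family, and ENSMUST00000116835 (-3.97). NONMMUT064720 and Nlrp9a were well above background on 0 of the 4 DJB arrays. The next was NONMMUT009936 (-3.83). By the gap between groups the order was different, and Ugt2a3 stood 465th among the 9554 tested probes (14.8%) whose DJB values all lay below the sham values.

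**Figure D3:**
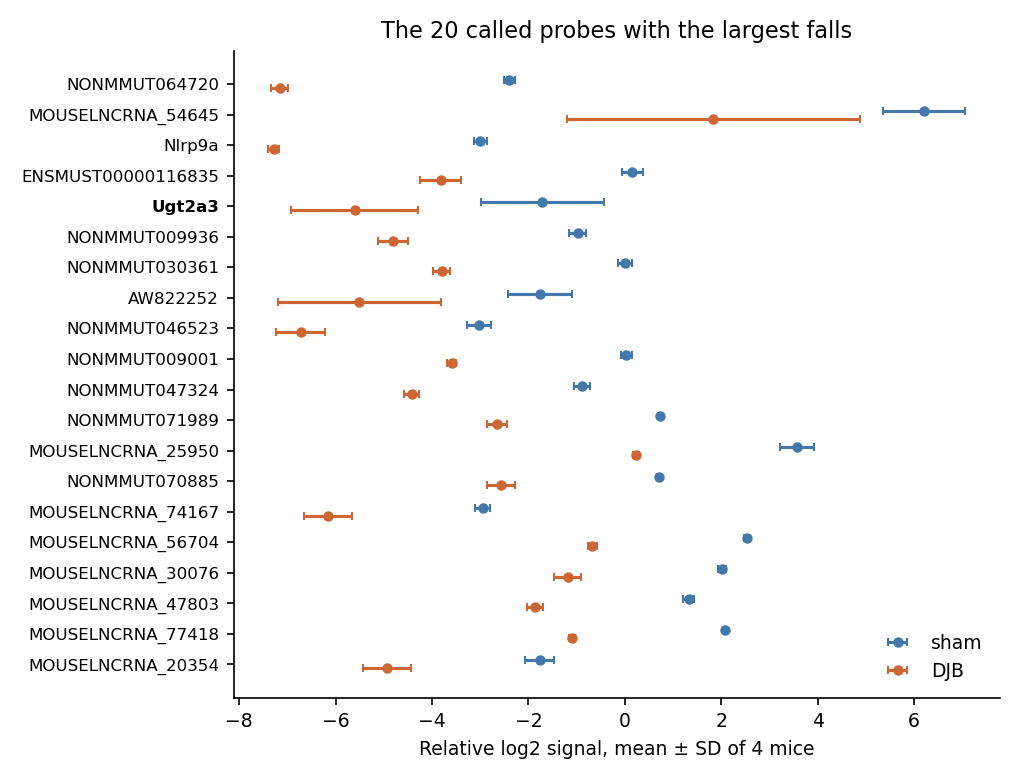
The 20 called probes with the largest falls after DJB, with relative log2 signal as mean ± SD of 4 mice (x axis) for sham and DJB, in order of the difference (y axis, transcript name or probe identifier). Ugt2a3, in bold, is the fifth from the top, and its error bars are wider than those of most of the other probes, AW822252 and MOUSELNCRNA_54645 being the exceptions among the DJB bars.

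Other probes were ordered by how closely their levels followed those of Ugt2a3 from mouse to mouse. All r values use the levels as computed, with DJB-1 and DJB-2 included, although Ugt2a3 was not well above background in either. The order of these mice therefore rests on values at background. Pearson's r over the 8 arrays, given as a description since the points share 2 slides and the group difference, was at least 0.9 for 1005 of 64370 probes (1.56%), of which 110 (10.9%, against 2.3% of all tested probes) were called lower, a share that the group difference within r favours, and at most -0.9 for 1953. The 5 highest were MOUSELNCRNA_75830 (0.989), MOUSELNCRNA_54002 (0.987), MOUSELNCRNA_89190 (0.986), MOUSELNCRNA_3328 (0.985) and MOUSELNCRNA_27446 (0.985), with differences between groups of -0.38, -0.91, -0.87, -0.70 and -0.65. Their likeness lies in the pattern over the mice and not in the size of the change, which was larger for Ugt2a3 than for each of the 5.

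Over deviations from the group means, which leave out the group difference, r was at least 0.9 for 190 probes (0.295%) and at most -0.9 for 184 (0.286%). The highest were MOUSELNCRNA_35585 (0.995), MOUSELNCRNA_70930 (0.987), MOUSELNCRNA_48908 (0.984), MOUSELNCRNA_14138 (0.981) and MOUSELNCRNA_21093 (0.978). Shares of this size at both signs leave these r values as a description only. The 38 probes with both r values at 0.9 or more had differences of -1.06 to -0.09, and 1 of them (2.63%) was called lower, close to the 2.3% of all tested probes.

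Of the named transcripts, the lncRNA AW822252, which RefSeq places on chromosome X, followed Ugt2a3 most closely, with r of 0.96 over the 8 arrays and 0.86 over deviations. It is described because of these values, which were seen first, and its probe is printed beside that of Ugt2a3 to show that their sequences differ.

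AW822252 probe MOUSELNCRNA_8506: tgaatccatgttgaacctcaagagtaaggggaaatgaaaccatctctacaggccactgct

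Its relative log2 signal was -2.65, -1.88, -1.40 and -1.12 in sham-1 to sham-4 and -7.10, -6.80, -4.34 and -3.79 in DJB-1 to DJB-4, a difference of -3.74. As with Ugt2a3, it was well above background on 2 of the 4 DJB arrays, and DJB-3 and DJB-4 were the higher ones. In DJB-1 and DJB-2 both transcripts lay below the dimmest level measured well above background. Both r values include these mice, so they rest in part on values at background. Another 35 probes had a higher r over the 8 arrays and 454 over deviations. Transcripts running the other way included NONMMUT017554 (r of -0.97 over the 8 arrays and -0.89 over deviations), Cpvl (-0.94 and -0.81), a serine carboxypeptidase, and Pla2g4c (-0.95 and -0.77), a phospholipase A2. The study lists them as higher after DJB, which favours a negative r over the 8 arrays. Cpvl was well above background on 1 of the 4 sham arrays.

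**Figure D4:**
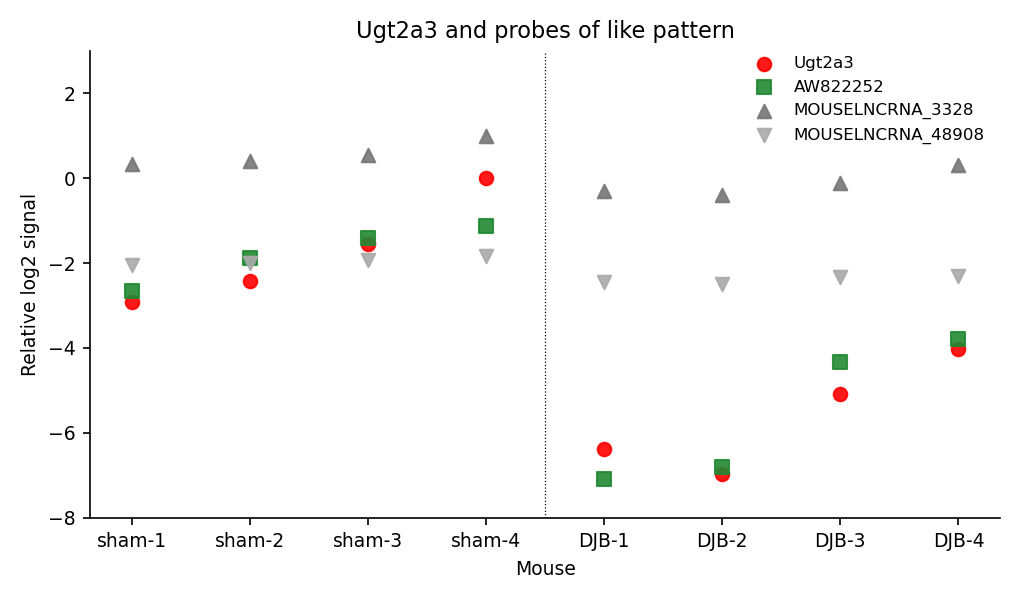
Relative log2 signal (y axis) in each mouse (x axis) for Ugt2a3, AW822252 and the probes MOUSELNCRNA_3328 and MOUSELNCRNA_48908, whose r with Ugt2a3 is among the 5 highest over 8 arrays or over deviations. AW822252 runs from -7.10 to -1.12 and Ugt2a3 from -6.98 to 0.01, while the other 2 probes keep the order of the mice within a much narrower range.

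The size of the fall depended on the background correction. With normexp correction, which models the background and here added an offset of 50 to every intensity, the sham mean was -1.30 ± 0.93 and the DJB mean -2.62 ± 0.19, a difference of -1.32 or 2.49-fold. The 4 DJB intensities named above all lie below that offset, and the gap between the groups shrank to 0.27 without overlap. In the authors' own log2 values, the level was 6.89 ± 1.27 in sham and 3.01 ± 1.41 in DJB mice, a difference of -3.88. Ugt2a3 was also among the transcripts that the study measured by qRT-PCR, and those readings are not used here.

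**Figure D5:**
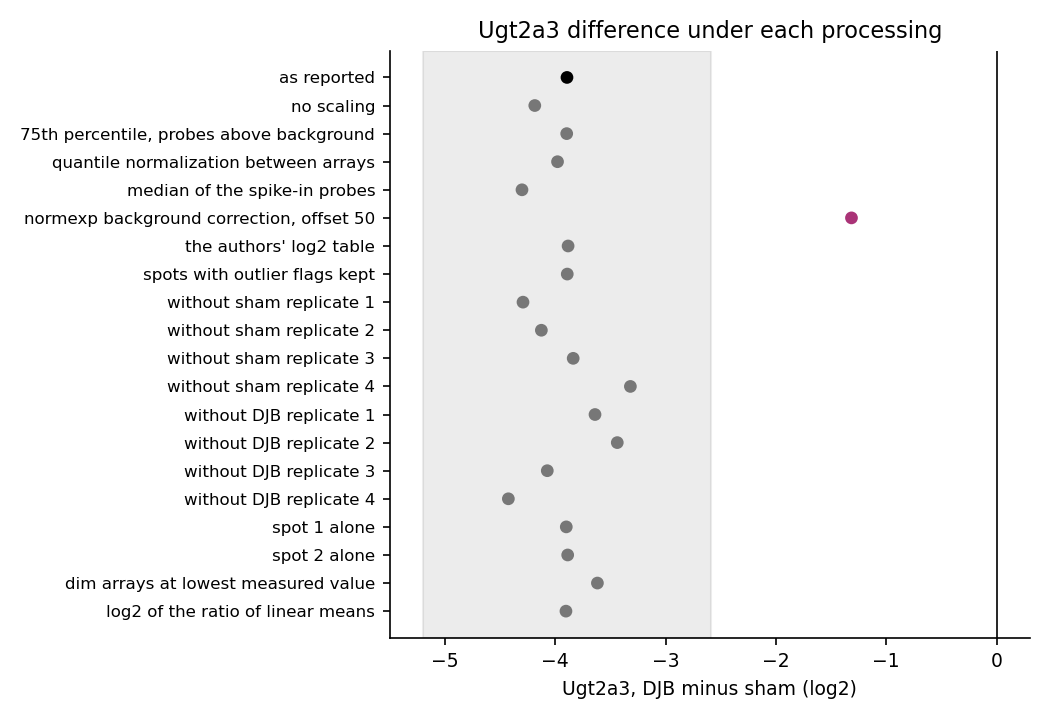
DJB minus sham difference of Ugt2a3 (x axis, log2) under each way of processing (y axis), with the value as reported in black, the pooled SD around it shaded and the line at 0 marking no difference. All values lie below 0, and the normexp correction, at -1.32, is the one outside the shaded range.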

How the data were processed

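RNA of 8 ileum samples was hybridised to one-colour Agilent arrays. The authors deposited scanner files with the intensity of each spot, made with Agilent Feature Extraction 11.0.1.1 per the labels, which subtracts background, and a table of log2 values whose normalization method is not given in the sources used here. From the processed intensity, control spots and spots with outlier flags were dropped, and the mean log2 of a probe's spots was set against the 75th percentile of its array. A probe entered the fit if all arrays of sham, of DJB or of both had it well above background and each group had 2 or more values, and these 64408 probes were fitted with limma 3.58.1 in R 4.3.3 (lmFit and eBayes, no covariate, Benjamini-Hochberg adjustment) and called with a fold of 2 or more and an adjusted p under 0.05. The script was tested on simulated data. The number of arrays limits the precision.

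The gene and all lists were chosen with earlier results of these data known. The rule named the Ugt2a3 probe, the UGT family, called genes of other lists and the 5 probes with the highest r by each measure. The array files name no genes, and 40 transcripts were named by matching group ratios to the study's lists, to a relative error of at most 3.6e-09, with the next closest probe off by at least 7.4e-05. The planned lists (UGT family, glucuronidation cofactors, other conjugation, phase 1, transporters, regulators and cell type markers) could not be tied to probes and are not analysed here. The labels do not say whether replicate numbers pair mice, and no pairing was used in the main fit. Deviations of same-numbered mice correlated between -0.02 and 0.01, which cannot show whether they were paired by design. Alternatives covered scaling, background correction, the authors' table, outlier flags, single spots, the filter, the test, blocks and each mouse left out.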

Additional observations from a re-analysis of the deposited data

How the results depend on the processing

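The Ugt2a3 difference was negative in all 21 settings, the reported setting included. It moved by more than 1 pooled SD in 1 of them, the normexp correction with an offset of 50 (-1.32, or 2.49-fold). Leaving out each mouse gave -4.43 to -3.32. With the replicate number as a block it was -3.89, a value that the block cannot change, since both groups hold the same replicate numbers. The sign could not change when a mouse was left out, since the groups did not overlap, and the probe was chosen for a fall. Counts of lower and higher probes moved by over 1.5 times under 3 settings. They were 3255 lower and 399 higher with no scaling, 4524 and 308 with the median of the spike-in probes, and 677 and 357 with normexp. The share of lower calls was 64.1% as reported, 89.1% with no scaling and 93.6% with the spike-in probes, which shifted the median of all probes to -0.21 and -0.33. The cause was not tested. Leaving out each mouse gave 1388 to 1754 lower and 773 to 973 higher calls, and the replicate block 1469 and 845. The methods' t-test gave 1480 lower and 829 higher calls at an unadjusted p under the threshold and 1428 and 725 after Benjamini-Hochberg adjustment. The same settings for the UGT family were not run, since its probes could not be named. Signal over background limits the 2 dimmest DJB mice.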
